A study of Mus musculus with 4 samples.

Results

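The outer dense fibre genes were followed in testes of 24-day-old (P24) mice that lack the transcription factor RFX2 and in testes of control mice of the same age. The 9 genes were chosen by symbol, Odf1, Odf2, Odf2l, Odf3, Odf3b, Odf3l1, Odf3l2, Odf4 and Oaz3, and all 9 were found among the 22311 genes of the deposited tables. The mutant group (2 samples, mutant 1 and mutant 2) carried the genotype rfx2-/-, in which the exons encoding the DNA-binding domain were replaced by a PGK-neomycin cassette, and the line descends from 1 embryonic stem cell clone. The control group (2 samples, control 1 and control 2) is labelled wild type, whereas the methods of the study describe the RNA-seq controls as heterozygous. The labels give the strain of all 4 samples as DBA, whereas the methods describe a mixed 129 and C57BL/6 background. RNA came from all cells of the testis, in which every cell lacks RFX2 in the mutant. The methods call the samples biological replicates and speak of 2 control mice, which reads as 1 mouse per control sample, and do not number the mutant mice. P-values measure the spread between these samples.

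The sperm tail is built around a microtubule axoneme, and in mammals the midpiece and principal piece carry accessory structures outside it. The outer dense fibres are cysteine-rich, keratin-like rods that run beside the axonemal doublets, start at the connecting piece behind the sperm head and give the tail its stiffness and elastic recoil. Their genes are transcribed in spermatids, and the rods are assembled late, while the spermatid elongates. RFX factors bind a paired DNA motif called the X-box and control many genes of cilia and flagella.

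The values are FPKM, the number of sequenced fragments scaled for the length of the transcript and the depth of the sample. Differences in log2(FPKM + 1) were tested with limma, for the 12985 genes that reached an FPKM of 1 in at least 2 of the 4 samples, with Benjamini-Hochberg adjusted p and a threshold of 0.05. Confidence bounds in the files correspond to 17.2 to 20.4 M (mega) fragments per sample, and 18416 to 18588 genes were above 0. Rfx2 itself stood at 36.7 and 39.8 FPKM in the mutant samples and at 123 and 89.4 FPKM in the controls, 36.0% of the control mean (log2 fold change -1.43, SE 0.19, adjusted p 0.00617 by limma). That value covers the whole transcript and not the replaced exons alone, and the call was lost without control 1 (adjusted p 0.0628), without a filter and with median-ratio scaling. The 2 mutant samples stood apart from each other in genes of late spermatids. Prm1, a protamine of condensing spermatids, was at 136 and 1195 FPKM in mutant 1 and mutant 2 against 1792 and 1266 FPKM in the controls. Tnp1, a transition protein of the same cells, was at 152 and 999 FPKM in mutant 1 and mutant 2 and at 1615 and 1015 FPKM in control 1 and control 2. All 12 elongating spermatid markers were lower in mutant 1 than in both controls, whereas 2 of them were lower and 5 were higher than both controls in mutant 2. The histology of the study found no elongating spermatids in mutant testes after this age. Its RT-PCR found no difference between wild type and mutant for the protamine and transition protein genes. The marker lists name genes and count no cells, so the values of mutant 2 do not show that it held elongating spermatids. In RNA from whole testis, fewer cells of a type and less RNA per cell cannot be told apart.

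Of the 9 genes, 8 passed the filter on low values. Among these 8, 2 were down-regulated in the mutant, Odf3l1 and Odf3b, and 0 were up-regulated (0 also at an unadjusted p under 0.05); among all genes tested, 2.52% were called lower and 0.308% higher, 2.83% in all. Odf3b passed the filter through its control values alone, and without the filter its call was lost (adjusted p 0.0659 by limma) and the count was 1. At an unadjusted p under 0.05, 867 of the 12985 genes were lower and 261 higher. The groups of Odf3l1 and Odf3b did not overlap, which held for 15.2% of all genes in the lower and 16.3% in the higher direction, 31.5% in all. Both belong to the Odf3 (shippo) family, small proteins with repeated proline-glycine motifs that lie along the microtubules of the tail. The other 6 genes tested had overlapping groups, among them Odf1 and Odf2, which encode the major proteins of the fibres. For all 8 genes tested together the log2 fold changes had a median of -0.09, beside 0.032 for all genes tested.

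**Figure D1:**
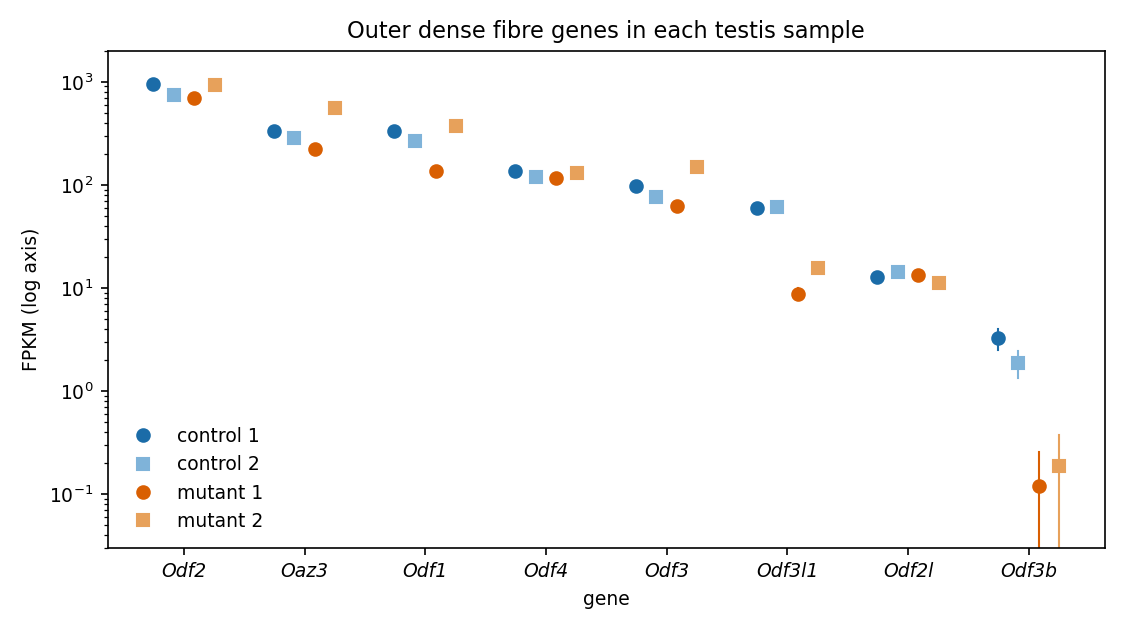
FPKM of the 8 outer dense fibre genes tested (log axis), 1 point per sample; vertical lines are the confidence bounds of the deposited FPKM, cut at 0.03. The mutant points of Odf3l1 (8.75 and 15.5 FPKM) and Odf3b (0.119 and 0.185 FPKM) sit below both control points, while for Odf1, Odf3 and Oaz3 mutant 1 lies below and mutant 2 above both controls.

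In the control testes the FPKM levels spanned from Odf2, with a mean of 854 ± 151 (SD, n = 2), to Odf3l2, of which about 1 fragment was detected in all. Between them the control order was Oaz3, Odf1, Odf4, Odf3, Odf3l1, Odf2l and Odf3b. Only the neighbours Oaz3 and Odf1 had overlapping control values. In the mutant samples Oaz3 and Odf1 overlapped again, as did Odf4 with Odf3 and, although not neighbours in the order, Odf1 with Odf3. Odf3l1 left its place between Odf3 and Odf2l, and its mutant values of 8.75 and 15.5 FPKM overlapped the 13.4 and 11.2 FPKM of Odf2l.

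Odf3l1 (outer dense fibre of sperm tails 3-like 1, chr9:56696466-56699770 on the minus strand of NCBIM37, 5 exons) had the smallest adjusted p of the 8 genes tested. Mutant 1 had 8.75 and mutant 2 had 15.5 FPKM, whereas control 1 had 59.3 and control 2 had 60.4 FPKM. The mutant values were lower than both controls by more than the distance between the samples of either group, and the means were 12.1 ± 4.78 and 59.9 ± 0.765 (SD, n = 2 each). The mutant mean was 20.3% of the control mean, with 14.6% in mutant 1 and 25.9% in mutant 2. On the log2(FPKM + 1) scale the difference was -2.26 (SE 0.25, adjusted p 0.00222 by limma). The call held in every alternative test with all 4 samples, with an adjusted p by limma of 0.0470 without a filter and 0.0346 with median-ratio scaling. Leaving out a sample in turn gave differences from -2.64 to -1.88. With 1 mutant sample left out, the spread came from the 2 close control values alone. Such a fit could not weigh the distance between the mutant samples.

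Within each sample, Odf3l1 can also be read against Odf3, the family member for which the group is named. Odf3l1 amounted to 14.1% and 10.4% of the Odf3 FPKM in mutant 1 and mutant 2, and to 61.3% and 78.4% in the controls. The ratio was thus low in both mutant samples, although Odf3 itself differed 2.40-fold between them. Odf3 stood at 71.6% of its control mean in mutant 1 and at 172% in mutant 2. The ratio was therefore lower in mutant 2, whereas the Odf3l1 FPKM was lower in mutant 1. An exact permutation test of 2 samples against 2 cannot give a two-sided p under 0.333, so none is given for the ratios.

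Odf3b (outer dense fibre of sperm tails 3B, chr15:89207881-89209685 on the minus strand of NCBIM37, 5 exons) was weakly expressed in the controls. It was at 0.119 and 0.185 FPKM in mutant 1 and mutant 2, and at 3.24 and 1.88 FPKM in control 1 and control 2. The confidence bounds of the deposited FPKM correspond to about 3 and 4 fragments in the mutant samples and about 78 and 48 in the controls. Scaled by depth, the mutant fragments were 5.88% of the control level (95% interval 2.32% to 12.5%, counting error only). The log2 fold change on the log2(FPKM + 1) scale was -1.60 (SE 0.23, adjusted p 0.00859 by limma), a value that the pseudocount makes smaller, since the ratio of mean FPKM gives -4.07. Beside the loss without the filter, its call was lost with median-ratio or quantile scaling of the samples (adjusted p 0.0549 and 0.102), while its direction held in every analysis that contained it. Odf3b amounted to 0.191% and 0.124% of the Odf3 FPKM in the mutant samples and to 3.34% and 2.44% in the controls.

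**Figure D2:**
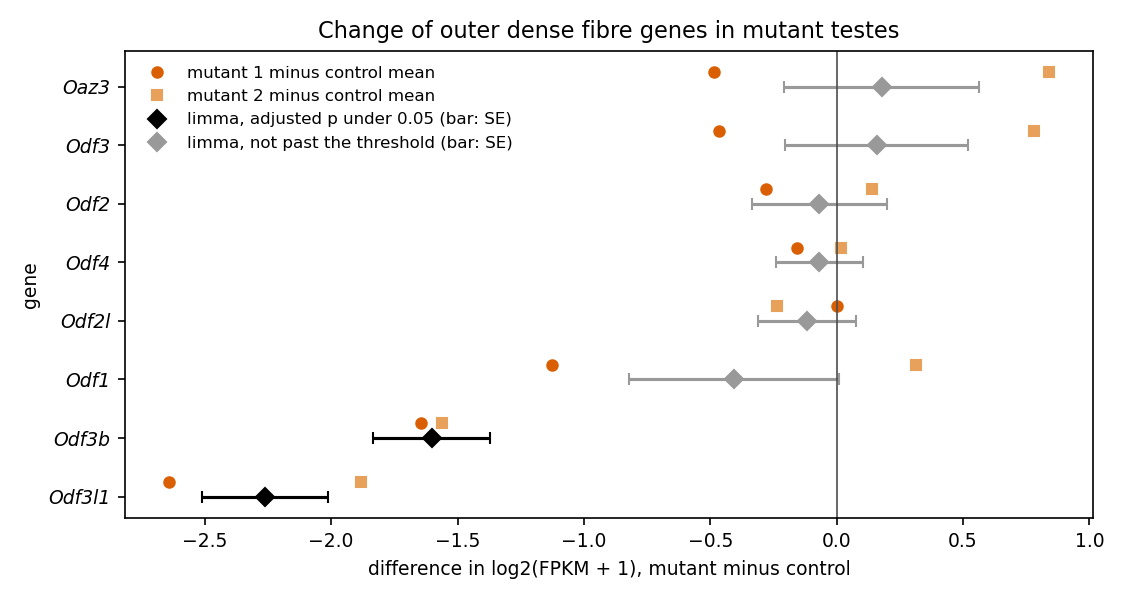
Difference in log2(FPKM + 1) between mutant and control for the 8 genes tested; diamonds are limma log2 fold changes with their SE, black where the adjusted p is under 0.05, and the small points are each mutant sample minus the control mean. Odf3l1 and Odf3b lie left of 0 in both mutant samples. For each of the other genes the small points lie on opposite sides of 0, farthest apart for Odf1, Oaz3 and Odf3.

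The sequences before the starts of these 2 genes are shown because the deleted factor binds DNA. RefSeq windows on GRCm38.p6, from 250 bases before to 50 bases after a start, were at hand for 6 of the 9 genes and not for Odf1, Odf3l2 and Oaz3. In the 250 bases before a start of Odf3l1 (chr9:56851964-56852213, minus strand) the capitals mark the closest match to the X-box, with 1 mismatch, and in those of Odf3b (chr15:89379255-89379504, minus strand) no stretch is in capitals because its closest match has 2 mismatches.
Odf3l1: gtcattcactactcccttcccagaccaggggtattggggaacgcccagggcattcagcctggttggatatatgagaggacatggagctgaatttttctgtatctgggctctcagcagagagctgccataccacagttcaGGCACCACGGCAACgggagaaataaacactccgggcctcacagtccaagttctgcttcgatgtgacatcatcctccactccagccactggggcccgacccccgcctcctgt
Odf3b: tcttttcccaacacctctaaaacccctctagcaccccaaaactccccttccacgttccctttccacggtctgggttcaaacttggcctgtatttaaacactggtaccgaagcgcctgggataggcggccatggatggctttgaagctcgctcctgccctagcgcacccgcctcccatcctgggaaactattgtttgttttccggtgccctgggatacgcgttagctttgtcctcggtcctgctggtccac

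X-box matches were searched on both strands with 0 to 3 bases between the arms of the motif. Across the windows of 27025 genes, 1.75% of genes held the motif without a mismatch and 12.7% with at most 1 mismatch. Of the 6 outer dense fibre genes with a window, 0 held it without a mismatch and 2 held it with 1, Odf3l1 and Odf2l. Odf2l was not called different in the mutant. The closest matches in the windows of Odf3 and Odf3b each had 2 mismatches, and 67.2% of all genes held a match with at most 2. Both sites are written 5′ to 3′ on the motif strand, with the matched stretch in capitals and 8 flanking bases on each side.
Odf3l1 site: acagttcaGGCACCACGGCAACgggagaaa
Odf2l site: gcaggccgGTTACTAGCAACgttgagct
The Odf3l1 stretch in capitals (chr9:56852061-56852074) lies 111 to 98 bases before 1 of its 2 annotated starts, on the strand of the gene. In the window of the other start the closest match (chr9:56853926-56853937) had 2 mismatches. The Odf2l stretch in capitals (chr3:145118602-145118613) lies just after the annotated starts on the strand of the gene. With the motif letter first, the position counted from 1 at the 5′ end of the motif, and the base of the site last, the mismatches are T2G in Odf3l1 and C6T in Odf2l. The cAMP response element TGACGTCA, the site of the spermatid activator CREM, was in 0 of the 6 windows and in 2.03% of all genes. Its core TGACG, which is contained in it, was found for Odf2 alone and in 23% of all genes.

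Odf1, Odf2 and Odf4 encode proteins of the fibres themselves. Odf1, a small heat shock-like protein that is also needed to hold the head on the tail, lies at chr15:38148958-38156490 (plus strand, NCBIM37). Its FPKM was 136 in mutant 1, 371 in mutant 2, 335 in control 1 and 264 in control 2. Mutant 1 was thus the lowest sample and mutant 2 the highest, and the groups overlapped. The log2 fold change was -0.41 (SE 0.41, adjusted p 0.9999 by limma), and mutant 1 stood at 45.3% and mutant 2 at 124% of the control mean. Without mutant 2 the log2 fold change of Odf1 was -1.13, and without mutant 1 it was 0.32.

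Odf2, the coiled-coil scaffold of the fibres whose other splice forms (cenexin) sit on the mother centriole, lies at chr2:29744741-29787266 (plus strand). Its FPKM was 699 (mutant 1), 935 (mutant 2), 961 (control 1) and 747 (control 2), and it was among the 28 most abundant genes of every sample. Its groups overlapped and the log2 fold change was -0.07 (SE 0.27). The gene-level FPKM does not separate the fibre form from cenexin. Odf4, a testis-specific tail protein (chr11:68735337-68740583, minus strand), was at 115 and 130 FPKM in the mutant and at 137 and 120 FPKM in the control samples, with a log2 fold change of -0.07 (SE 0.17). Odf4 was also the most even of the 3 between the mutant samples, which differed by 0.17 on the log2 scale, compared with 0.42 for Odf2 and 1.44 for Odf1.

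Odf3 and Oaz3 had the same order of samples as Odf1. Odf3 (chr7:148033704-148036917, plus strand) was at 62.2 and 149 FPKM in mutant 1 and mutant 2 and at 96.8 and 77.0 FPKM in the controls. Oaz3 (chr3:94237088-94240538, minus strand), a haploid germ cell antizyme that restrains polyamine synthesis and is needed for a firm head-tail junction, was at 221 and 554 FPKM in the mutant and at 333 and 287 FPKM in the control samples. For both genes the 2 mutant samples lay on either side of the controls. The log2 fold changes were 0.16 (SE 0.36) for Odf3 and 0.18 (SE 0.39) for Oaz3, with adjusted p of 0.9999 for each by limma. Without mutant 1, the log2 fold change of Odf3 was 0.78, and without mutant 2 it was -0.47 for Odf3 and -0.49 for Oaz3.

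The distance between the mutant samples was larger for these genes than for most others. Mutant 2 exceeded mutant 1 by 1.44 for Odf1, 1.33 for Oaz3 and 1.25 for Odf3 on the log2 scale, whereas the SD of that difference over the 12985 genes was 0.47 and its median -0.12. A larger difference was seen in 1.74% of the genes for Odf1 and in 2.66% for Odf3. Control 2 minus control 1 was -0.34 for Odf1, -0.22 for Oaz3 and -0.33 for Odf3, and the SD over all genes was 0.35. Within a sample Odf1 was 19.4% of the Odf2 FPKM in mutant 1 and 39.7%, 34.9% and 35.4% in mutant 2, control 1 and control 2. Oaz3 was 31.5% of Odf2 in mutant 1 and 59.3% in mutant 2, compared with 34.7% and 38.4% in the controls.

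Markers of spermatids moved with these genes. The median of the 12 elongating spermatid markers was -1.77 in mutant 1 and 0.17 in mutant 2 relative to the control mean on the log2 scale, and their summed FPKM was 1408 and 6826 against 8173 and 5544 in the controls. For the 12 round spermatid markers the medians were -0.74 and 0.27, with summed FPKM of 852 and 1438 against 1284 and 1071. Acrv1, an acrosomal gene of round spermatids, was at 68.5 and 137 FPKM in mutant 1 and mutant 2 and at 120 and 101 FPKM in the controls. The 12 spermatocyte markers had medians of 0.16 and -0.03 and summed FPKM of 4905 and 4974 against 5322 and 4700. Of these 36 markers 1 was called lower by limma, Dpy19l2, beside 2.52% of all genes tested. None of the spermatogonium, Sertoli, Leydig, peritubular and macrophage markers was called. The 8 outer dense fibre genes had medians of -0.48 in mutant 1 and 0.08 in mutant 2, and 7 of the 8 were below both controls in mutant 1. The part of the spermatid markers in these values was not tested. Odf3l1 and Odf3b were below both controls in mutant 2 as well, at 15.5 FPKM against a lower control of 59.3 and at 0.185 FPKM against 1.88. In that sample 2 of the 12 elongating spermatid markers were below both controls by a small distance, and 5 were above both. Prm1 was at 1195 FPKM against a lower control of 1266, and Tnp1 at 999 FPKM against 1015.

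**Figure D3:**
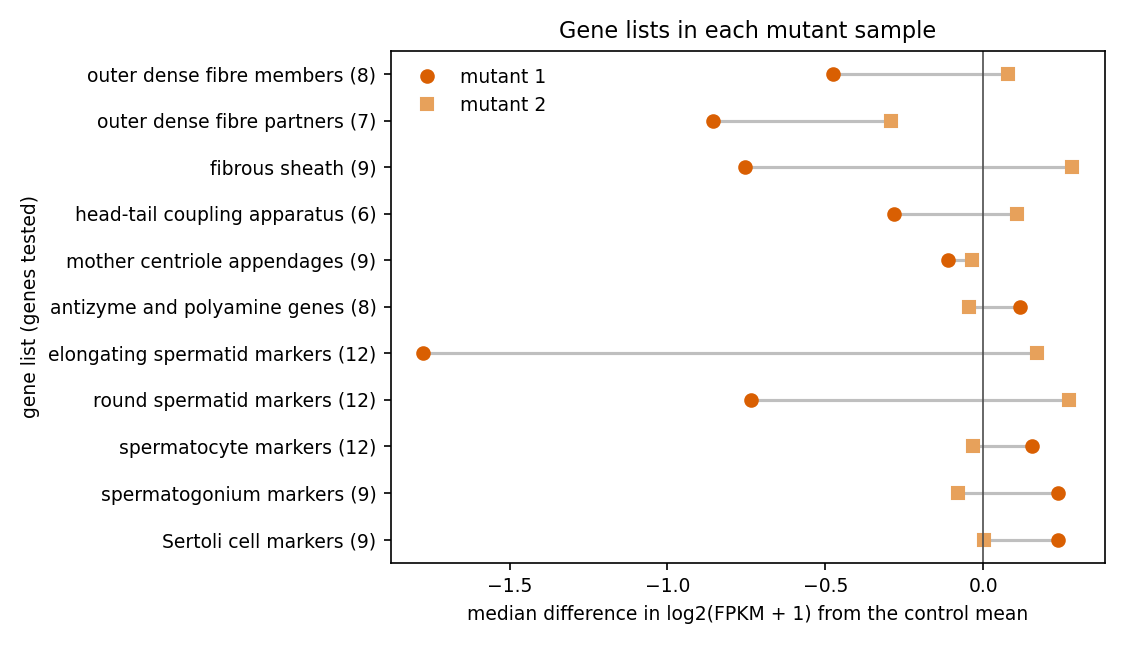
Median difference in log2(FPKM + 1) from the control mean for each gene list, with the number of genes tested in parentheses; circles are mutant 1 and squares mutant 2, joined by a line. The elongating spermatid markers range from -1.77 in mutant 1 to 0.17 in mutant 2, and the outer dense fibre genes from -0.48 to 0.08.

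Odf2l and Odf3l2 completed the family. Odf2l, a relative of Odf2 found at centrosomes (chr3:144781553-144816879, plus strand), was at 13.4 and 11.2 FPKM in the mutant and at 12.6 and 14.2 FPKM in the control samples. The log2 fold change was -0.12 (SE 0.19), and of the 8 genes tested Odf2l was the only one whose mutant 1 value was not below both controls. Odf3l2 (chr10:79102271-79108483, minus strand) was listed at 0 in mutant 1, mutant 2 and control 1 and at 0.0314 FPKM in control 2, which corresponds to about 1 fragment. It was not tested, and no fold is given. In the NCBIM37 annotation Odf2 is the only one of the 9 genes whose span is overlapped by another gene, a small nuclear RNA that is not listed in the tables.

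Genes with sample profiles close to those of Odf1 and Oaz3 were ranked by the Euclidean distance of their log2 values, each centred on its mean over the 4 samples. The 3 nearest to Odf1 were 4933402J07Rik, Fam71f1 and Dpysl3, at distances of 0.044, 0.049 and 0.067. For example, 4933402J07Rik was at 45.0, 119, 112 and 86.6 FPKM in mutant 1, mutant 2, control 1 and control 2. The 3 nearest to Oaz3 were Fam154a, Fbxo24 and 1700018L24Rik, at 0.056, 0.084 and 0.090. Within a distance of 0.5 lay 3.07% of the other genes tested for Odf1 and 2.43% for Oaz3.

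Genes whose proteins bind, modify or are found with the fibres were examined next. The list was chosen with earlier results of these data known, and the study had already reported Tekt4 as down-regulated. The count below is therefore a description and no independent support for an effect on fibre partners. Of 7 such genes, 2 were down-regulated, 0 were up-regulated and the median log2 fold change was -0.53. Among all genes tested, 2.52% were called lower and 0.308% higher, with a median of 0.032. Ccdc42, a coiled-coil protein that binds Odf1 and Odf2 and is needed to build the tail, was at 0.605 and 0.540 FPKM in the mutant and at 94.0 and 61.1 FPKM in the control samples (log2 fold change -5.61, SE 0.24, adjusted p 2.61e-05 by limma). Tekt4, a tektin filament protein found with the outer dense fibres in sperm, was at 2.14 and 4.91 FPKM against 201 and 158 FPKM (log2 fold change -5.38, SE 0.29, adjusted p 5.08e-05 by limma). Both mutant values of each gene were far below both controls. Ccdc42, under an FPKM of 1 in both mutant samples, passed the filter through its control values alone, but it was called without the filter as well. Spag4, which binds Odf1, was at 57.6, 128, 102 and 87.1 FPKM in mutant 1, mutant 2, control 1 and control 2, the same order of samples as Odf1 and with overlapping groups. Spag5, another Odf1-binding protein, stayed between 47.9 and 50.3 FPKM. Tssk4, a kinase that phosphorylates Odf2, was at 26.1, 41.5, 57.8 and 39.9 FPKM (adjusted p 0.734 by limma). For the 7 genes the median difference from the control mean was -0.86 in mutant 1 and -0.29 in mutant 2 on the log2 scale.

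The fibrous sheath surrounds the outer dense fibres in the principal piece. Of its 9 genes tested, 0 were called by limma, 1 was lower and 1 higher at an unadjusted p under 0.05, and the median log2 fold change was -0.11. Akap14, an anchor of protein kinase A, was at 3.30 and 3.74 FPKM in the mutant and at 7.67 and 7.01 FPKM in controls, and the log2 fold change was -0.89 (adjusted p 0.0905 by limma). Its groups did not overlap, as was the case for 15.2% of all genes tested in that direction. Akap4, the main sheath protein, was at 55.5 FPKM in mutant 1 and between 142 and 153 FPKM in the other samples. For the 9 sheath genes the median difference from the control mean was -0.76 in mutant 1 and 0.28 in mutant 2 on the log2 scale. Akap4 and Gapdhs also belong to the elongating spermatid markers.

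The connecting piece and the centriole lie at the base of the fibres. Of the 6 genes of the head-tail coupling apparatus tested, 0 were called by limma (0 also at an unadjusted p under 0.05) and the median log2 fold change was -0.08. Spata6, needed to form the connecting piece, was at 114 and 168 FPKM in the mutant and at 162 and 149 FPKM in the control samples. Of the 9 genes tested for the appendages of the mother centriole, where cenexin resides, 1 was called lower, beside 2.52% of all genes tested, and the median was -0.03. That gene was Cep128, listed as 4930534B04Rik, a subdistal appendage protein, at 18.9 and 22.1 FPKM in the mutant and at 50.5 and 50.2 FPKM in the control samples (log2 fold change -1.26, SE 0.16, adjusted p 0.00511 by limma). The call was lost without control 1 or control 2 (adjusted p 0.0838 and 0.0693), with differences of -1.26 and -1.27.

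The polyamine genes place Oaz3 beside its enzyme and its relatives. Of 8 genes tested, 0 were called by limma, 1 was lower at an unadjusted p under 0.05, and the median log2 fold change was 0.025. Odc1, ornithine decarboxylase, the enzyme that antizymes inhibit, was at 30.6 and 37.3 FPKM in the mutant and at 52.8 and 51.7 FPKM in controls, and the log2 fold change was -0.61 (adjusted p 0.158 by limma). Its groups did not overlap, which held for 15.2% of all genes tested in that direction, whereas those of Oaz3 overlapped. Oaz1, the antizyme of all tissues, was at 57.2 and 45.0 FPKM in the mutant and at 44.2 and 48.7 FPKM in the control samples. Amd1, which makes the decarboxylated donor for polyamine synthesis, was at 8.06, 0.00154, 7.90 and 3.79 FPKM in mutant 1, mutant 2, control 1 and control 2. The value near 0 rests on 1 sample, its cause was not tested, and Amd1 was not called (log2 fold change -1.12, SE 0.86). Adc, the listed symbol for the antizyme inhibitor Azin2, was at 7.14 and 15.9 FPKM in the mutant and at 17.4 and 14.2 FPKM in the control samples.

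**Figure D4:**
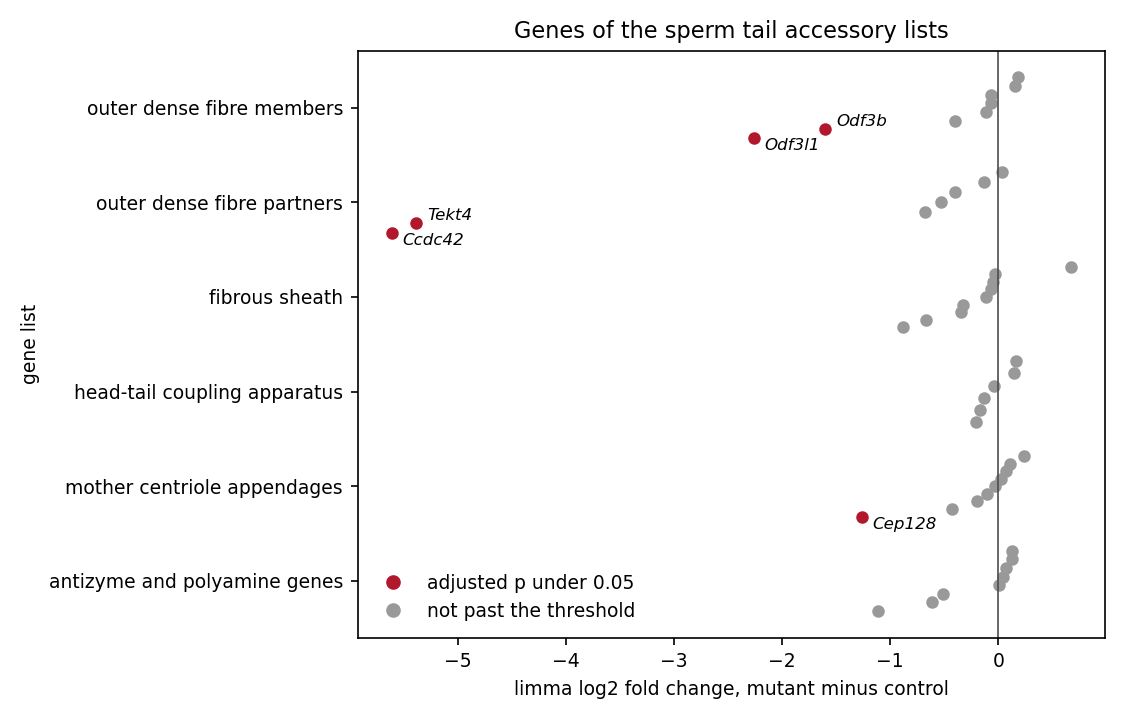
Limma log2 fold changes (mutant minus control) of the genes tested in the outer dense fibre list and 5 related lists, 1 point per gene; coloured and named points have an adjusted p under 0.05. Ccdc42 (-5.61) and Tekt4 (-5.38) lie farthest from 0, followed by Odf3l1 (-2.26), Odf3b (-1.60) and Cep128 (-1.26).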

How the data were processed

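RNA of whole P24 testes was sequenced on an Illumina instrument. Alignment by the authors used TopHat2 2.0.6 and mm9. The deposited tables hold FPKM values per gene as Cufflinks writes them, with a lower and an upper confidence bound, and the labels also name Cuffdiff. FPKM is not a count, and depth can be read only from the bounds.

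Entries sharing a symbol were summed. The filter kept genes reaching FPKM 1 in 2 or more of the 4 samples. The test was limma 3.58.1 under R 4.3.3, with lmFit and a trended eBayes, two-sided and with Benjamini-Hochberg adjustment, on log2(FPKM + 1), without a block and over the whole table. Fragments behind an FPKM were estimated from the deposited bounds, taken as 2 standard errors, and are no counts. Intervals are exact and cover counting error only.

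The 9 members, the lists and the tests were chosen with earlier results of these data known. The genes named are the members, Rfx2, list genes that passed the adjusted threshold or were at least 2-fold apart with groups that do not overlap, Prm1, Tnp1 and Acrv1, and the 3 nearest profiles of Odf1 and Oaz3. Other list genes are named for their role, or because a call appeared when a sample was left out, after their values were seen. Sept12 was not matched to its list because septin symbols are listed as dates. The entry 12-Sep had a log2 fold change of 0.0078 (SE 0.21). Oaz2 and Rhox5 were not found, and Nin, Ccdc120, Ccdc68, Odf3l2, Nanos3, Lhcgr and Cd163 were below the filter. Positions are from NCBIM37 (GENCODE), and promoter windows from RefSeq (GRCm38.p6); promoter matches of the partner genes are not reported here. Alternatives covered the pseudocount, filter, scaling, eBayes settings, a replicate block and the leaving out of each sample.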

Additional observations from a re-analysis of the deposited data

How the results depend on the processing

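The fall of Odf3l1 was called in every alternative test with all 4 samples. That of Odf3b was not called without a filter or with median-ratio or quantile scaling. The count of outer dense fibre genes called lower, 2, became 1 without a filter, with a filter at FPKM 5, with median-ratio scaling and with quantile normalization, and was 2 to 3 when a sample was left out; the count called higher, 0, was then 0 to 1. Leaving out a sample in turn moved the log2 fold change of Odf1 between -1.13 and 0.32, of Odf2 between -0.28 and 0.14, of Odf2l between -0.24 and 0.0019, of Odf3 between -0.47 and 0.78, of Odf4 between -0.16 and 0.024 and of Oaz3 between -0.49 and 0.84, and the median of the members between -0.48 and 0.08. In those fits the lone sample of a group is assumed to vary like the other group. Genes called lower then numbered 2 to 5 among the fibre partners, 0 to 3 in the fibrous sheath, 0 to 1 at the centriole appendages, 0 to 2 among the polyamine genes, and 167 to 948 among all genes (327 in the main analysis), with 13 to 162 called higher (40). Without a filter, all genes gave 199 lower and 17 higher, with a filter at FPKM 5 202 and 17, with median-ratio scaling 216 and 16, and robust eBayes gave 67 higher. Rfx2 was not called without a filter (adjusted p 0.0607) or with median-ratio scaling (0.0730), and Akap14 was called with robust eBayes (0.0414). The causes were not tested.

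The sample titles number the replicates without naming pairs, and the numbers were not treated as pairs. Same-numbered samples deviated from their group means with a correlation of -0.15 over 12985 genes. With 2 samples per group that value cannot show whether samples were paired. A fit with the replicate block gave 2 members lower and 0 higher, 1 polyamine gene lower, and 525 lower and 70 higher among all genes; with the numbers crossed, an analysis chosen after seeing the data, 2 members, 266 and 28. The block leaves 1 residual degree of freedom. Genes with few fragments, such as Odf3b, are imprecise at this depth.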
